A study of Mus musculus with 32 samples.

Results

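The genes described here are 10 mouse genes of antigen presentation by the major histocompatibility complex (MHC), measured in brain tumors of 2 transgenic models. They were chosen by symbol, through the Ensembl identifiers of the tumor count table, and all 10 were found among its 37310 genes. They are the class I heavy chains H2-K1 and H2-D1, the class I light chain B2m, the peptide transporter subunits Tap1 and Tap2, the loading factor Tapbp, the class I transactivator Nlrc5, the class II chains H2-Aa and H2-Ab1, and the class II invariant chain Cd74.

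RNA was extracted from fresh-frozen biopsies of 6 GMYC tumors and 8 GTML tumors and sequenced on the Ion Torrent platform. For GTML data the paper cites an earlier study and also mentions new GTML tumors, without saying which tumors these are. To that extent, model and sequencing round cannot be told apart. GMYC mice carried Glt1-tTA and TRE-MYC, so that the tetracycline transactivator, expressed from the Glt1 promoter, turned on a MYC transgene in the absence of doxycycline. GTML mice carried the same driver with a MYCN transgene. Both models had been backcrossed over several generations into the FVB/N strain, whose immune system is intact, and the tumors arose in the hindbrain. The strain of origin of each tumor's MHC alleles is not given. The labels give neither the age of the mice nor whether each biopsy came from a different mouse, so p-values measure the spread between these biopsies. The transgenes turn on in Glt1-expressing cells, but each biopsy also holds host cells of the brain and of the immune system, and in such bulk RNA fewer cells of a type and less RNA per cell cannot be told apart.

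MHC class I molecules are carried by nearly all nucleated cells and show peptides from inside the cell to CD8+ T cells. Peptides are cut by the proteasome, pumped into the endoplasmic reticulum by TAP1 and TAP2, and loaded with the help of tapasin onto a heavy chain bound to beta-2-microglobulin. Class II molecules are mainly made by professional antigen-presenting cells and show peptides from outside the cell to CD4+ T cells, with CD74 guarding the groove until loading. In the brain, microglia and macrophages are the usual class II carriers, whereas neural cells keep class I low at rest. Interferon gamma raises both branches, class I largely through IRF1 and NLRC5 and class II through CIITA.

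Upstream sequences are shown for 3 class I members and 1 class II member that were all highest in the same tumor, GMYC tumor 2, since MHC promoters are known to share control elements. RefSeq promoters (GRCm38.p6, the C57BL/6J reference) matched 6 of the 10 members: H2-K1, H2-D1, B2m, Tap1, Tapbp and H2-Aa. Each line gives the 250 bases before the annotated start, 5′ to 3′ on the gene's strand, with matches to the searched motifs in capitals. The H2-K1 window is chr17:34000348-34000597 on the minus strand, for the more upstream of its 2 annotated starts, and the H2-D1 window is chr17:35262844-35263093 on the plus strand. The B2m window is chr2:122147437-122147686 on the plus strand and the H2-Aa window is chr17:34287824-34288073 on the minus strand.
H2-K1: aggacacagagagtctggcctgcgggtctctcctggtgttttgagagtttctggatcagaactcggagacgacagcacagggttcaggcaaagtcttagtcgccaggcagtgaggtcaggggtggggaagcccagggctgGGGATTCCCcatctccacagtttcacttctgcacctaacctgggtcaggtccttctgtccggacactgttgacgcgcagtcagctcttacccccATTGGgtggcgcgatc
H2-D1: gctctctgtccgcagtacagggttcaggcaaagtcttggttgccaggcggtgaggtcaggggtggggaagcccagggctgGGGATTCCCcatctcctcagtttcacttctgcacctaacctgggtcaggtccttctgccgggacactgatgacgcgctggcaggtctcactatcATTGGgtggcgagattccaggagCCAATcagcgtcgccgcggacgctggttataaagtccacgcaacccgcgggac
B2m: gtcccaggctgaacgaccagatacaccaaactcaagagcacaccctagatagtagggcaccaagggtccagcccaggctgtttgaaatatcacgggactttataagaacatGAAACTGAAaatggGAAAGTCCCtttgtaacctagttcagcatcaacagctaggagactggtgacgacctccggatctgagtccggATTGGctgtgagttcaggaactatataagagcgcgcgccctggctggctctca
H2-Aa: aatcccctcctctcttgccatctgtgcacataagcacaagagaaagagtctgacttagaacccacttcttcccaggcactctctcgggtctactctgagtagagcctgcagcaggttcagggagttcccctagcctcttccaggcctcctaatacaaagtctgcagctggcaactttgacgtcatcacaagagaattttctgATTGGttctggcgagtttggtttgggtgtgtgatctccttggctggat

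The Y box letters CCAAT occurred, on either strand, upstream of all 6 members with a sequence, and in 33.8% of all 32851 promoters of the table. The interferon-stimulated response element core GAAANNGAA occurred in B2m, at bases -139 to -131, and in 7.13% of promoters. The NF-kB letters GGGANTTTC occurred in B2m, at bases -125 to -117, without overlap with the first motif, and in 0.941% of promoters. The gamma-activated site letters TTCNNNGAA (7.02% of promoters) and the E-box CACGTG (6.02%), the core bound by MYC and MYCN, were not found in these windows. The 9 letters GGGATTCCC, searched after the sequences had been seen, stood at bases -110 to -102 of H2-K1 and -170 to -162 of H2-D1, and in 0.301% of promoters. The H2-K1 and H2-D1 windows aligned over 190 bases, of which 175 (92.1%) were identical. All matches are matches of the given letters in the reference and not measured binding. Forms of these elements with other letters were not searched, so a window without a match is not shown to lack the element. GAAANNGAA, TTCNNNGAA, GGGANTTTC and CACGTG were each looked for on both strands.

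The heavy chains also resemble each other and further class I genes in their transcripts, which bears on how reads were assigned. Of the 50-base words in the annotated transcripts of H2-K1, 9.63% also occurred in another gene, and of those of H2-D1, 12.8%. The share was 0.442% for Tap1, 0.655% for Tap2, 2.87% for Tapbp and 0.488% for H2-Aa, and no word of B2m, Nlrc5, H2-Ab1 or Cd74 was shared. H2-K1 and H2-D1 are moreover among the most polymorphic genes of the mouse. The reads of these tumors, from mice backcrossed into FVB/N, were counted on the C57BL/6J genome. Levels of H2-K1 and H2-D1 are therefore uncertain where reads could be split between genes or lost.

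Sequencing depth was between 6218378 and 7279811 counts per GMYC tumor and between 4602294 and 6317404 per GTML tumor. The driver genes fitted the labels, with Myc at 33.4 to 165 CPM (counts per 1000000) in GMYC and 2.60 to 8.68 CPM in GTML tumors, and Mycn at 7.65 to 34.4 and 119 to 191 CPM. CPM here are scaled by the trimmed mean of M values (TMM). The Group 3 medulloblastoma markers Otx2, Npr3, Syp, Tubb3, Crx and Nrl summed to 767 to 1245 CPM in every tumor, lowest in GTML tumor 2. Small nucleolar RNAs took more than 0.3% of the counts of GMYC tumors 1 to 4 and GTML tumors 1 and 2 and less of the other 8, and Y-linked transcripts were near 0 in GTML tumors 2, 3, 5 and 8. A CPM over 1 in 3 or more tumors was reached by 21024 genes, all 10 members included. Of these genes, 4459 (21.2%) differed between the models at an adjusted p under 0.05 (edgeR quasi-likelihood test, Benjamini-Hochberg adjustment over all genes tested). Each gene's counting error follows from its count and is separate from the spread between tumors.

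None of the 10 members passed that test (0 of 10, against 21.2% of all genes), and 0 had an unadjusted p under 0.05. DESeq2 gave a p for 8 members, not for Tap1 and Nlrc5, and called 0 of these 8 (0 at an unadjusted p under 0.05), against 27.8% of all genes. Limma-voom called 0 of 10 (1, B2m, at an unadjusted p under 0.05), against 21.4% of all genes. The ranges of the 2 models overlapped for all 10 members. The edgeR estimate was lower in GTML for 9 of 10 members, with a median log2 fold change (GTML over GMYC) of -0.48, against 0.04 over all genes tested. That direction depended on 1 tumor, GMYC tumor 2, which held the highest level of 9 of the 10 members. Without it 7 of 10 estimates were higher in GTML, the median was 0.51, and 0 of 10 members were called among 20929 genes, of which 20.5% were. Without GTML tumor 2, whose level of the Group 3 marker Crx was 97.6 CPM against at least 298 in every other tumor, 0 of 10 members were called (2, B2m and Nlrc5, at an unadjusted p under 0.05), against 30.7% of all genes. Without GTML tumor 8, 0 of 10 members were called, against 18.3% of all genes, and the median log2 fold change was -0.78. In that setting 4 members, H2-K1, B2m, Tap1 and Tap2, had an unadjusted edgeR p under 0.05, all lower in GTML.

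The models also differed in the make-up of the small nucleolar RNA split, so the members were compared within it. Among tumors with few such counts (GMYC 5 and 6, GTML 3 to 8) 0 of 10 members were called, against 13.3% of all genes, with log2 fold changes of -0.80 for B2m, -0.47 for H2-K1, 0.76 for H2-Aa, 0.87 for H2-Ab1 and 0.97 for Cd74. Among those with many (GMYC 1 to 4, GTML 1 and 2) 0 of 10 were called too, but so were only 2 of 18921 genes, so that this count says nothing of the members. The log2 fold changes there were -0.23 for B2m, -0.37 for H2-K1, -0.68 for H2-Aa, -0.63 for H2-Ab1 and -0.45 for Cd74. The class II estimates had opposite signs on the 2 sides, of which the latter contains GMYC tumor 2. With a term for Y-linked transcripts, near 0 only in GTML tumors, 0 of 10 members were called, against 9.76% of all genes. The median log2 fold change was then -0.80, and only B2m, at -1.19, had an unadjusted edgeR p under 0.05 (0.0229, adjusted 0.108).

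**Figure D1:**
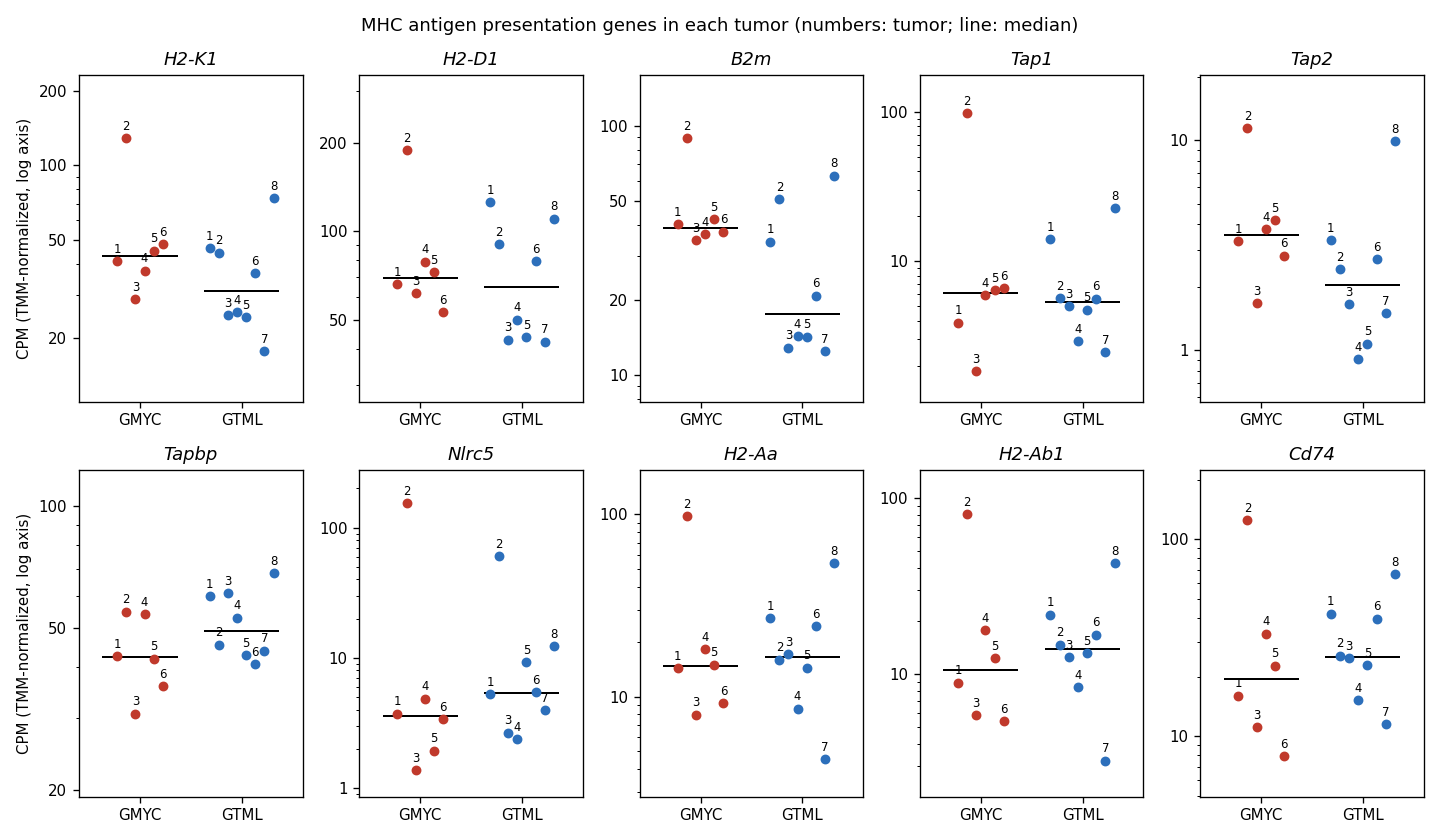
Level of each member in every tumor, in TMM-normalized CPM on a log axis that differs between panels. Red points are the 6 GMYC tumors, blue points the 8 GTML tumors, numbers give the tumor and the black line is the median of the model. GMYC tumor 2 stands highest in every panel but Tapbp, and GTML tumor 8 is the highest or next to it in 8 of the 10.

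Per kilobase of exon, the order of the median levels differed between the models. In GMYC tumors B2m led at 45.1 CPM per kb, followed by H2-D1 (26.9) and H2-K1 (14.7), with each above the next in 6 of 6 tumors. In GTML tumors H2-D1 led at 25.1 CPM per kb and stood above B2m (20.3) in 6 of 8 tumors. Cd74, Tapbp and H2-K1 changed places, at 11.6, 11.7 and 14.7 CPM per kb in GMYC and 15.1, 13.6 and 10.6 in GTML, with neighbors above one another in 3 of 6 to 5 of 6 GMYC and 5 of 8 GTML tumors. The class II chains came next in both models, H2-Ab1 at 4.11 and 5.41 and H2-Aa at 3.86 and 4.35 CPM per kb in GMYC and GTML, and H2-Aa exceeded Tap1 (1.13 and 0.969) in all 14 tumors. Tap2 (0.936 and 0.543) and Nlrc5 (0.419 and 0.631) were lowest, with Tap2 above Nlrc5 in 5 of 6 GMYC tumors and Nlrc5 above Tap2 in 4 of 8 GTML tumors.

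The class I heavy chains present the peptide. H2-K1 measured 40.9, 128.8, 28.8, 37.5, 45.2 and 48.1 CPM in GMYC tumors 1 to 6. In GTML tumors H2-K1 ranged from 17.7 to 73.8 CPM with a median of 31.1. GMYC tumor 2 and then GTML tumor 8 were highest, and the remaining 12 tumors lay between 17.7 and 48.1 CPM. The mean was 54.9 ± 36.8 (SD, n = 6) in GMYC and 36.7 ± 18.2 (SD, n = 8) in GTML, a log2 fold change of -0.58 ± 0.353 (SE) with an edgeR adjusted p of 0.238. Without GMYC tumor 2 it was -0.13 (adjusted p = 0.771).

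H2-D1 measured 66.2, 188.6, 61.7, 78.9, 72.6 and 53.2 CPM in GMYC tumors 1 to 6. In GTML tumors H2-D1 ranged from 42.3 to 125 CPM with a median of 64.7, and here GTML tumor 1 exceeded GTML tumor 8 (110 CPM). The log2 fold change of H2-D1 was -0.25 ± 0.324 (SE; edgeR adjusted p = 0.595), and it turned to 0.14 without GMYC tumor 2.

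B2m, which pairs with every class I heavy chain, came nearest to a difference between the models. It measured 40.2, 88.8, 34.6, 36.7, 42.0 and 37.5 CPM in GMYC tumors 1 to 6. In GTML tumors 1 to 8 B2m measured 34.2, 50.7, 12.8, 14.2, 14.2, 20.8, 12.5 and 62.8 CPM. GTML tumors 3 to 7 lay below every GMYC tumor, while tumors 1, 2 and 8 lay within or near the GMYC range. The log2 fold change was -0.74 ± 0.391 (SE; edgeR adjusted p = 0.174), and -0.46 without GMYC tumor 2. An exact two-sided permutation test of mean log2 CPM gave an unadjusted p of 0.0516, where the smallest p this design allows is 0.000333. That p was 0.0146 without GTML tumor 8, 0.0216 without GTML tumor 2 and 0.0449 without GTML tumor 1, and between 0.0521 and 0.109 without each of the others in turn.

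The transporter subunits differed in how far they spread. Tap1 measured 3.88, 98.6, 1.84, 5.93, 6.44 and 6.65 CPM in GMYC tumors 1 to 6. In GTML tumors Tap1 ranged from 2.45 to 22.6 CPM (median 5.31), with tumor 8 highest and tumor 1 next at 14.1. GMYC tumor 2 held 16.6 times the median of the other GMYC tumors, and the log2 fold change went from -1.37 ± 0.793 (SE; edgeR adjusted p = 0.213) to 0.68 without it. Tap2 was low throughout, at 1.68 to 11.4 CPM in GMYC and 0.912 to 9.93 CPM in GTML tumors (5 to 81 counts), again highest in GMYC tumor 2 and GTML tumor 8. Its log2 fold change was -0.60 ± 0.534 (SE; edgeR adjusted p = 0.422) and -0.08 (adjusted p = 0.926) without GMYC tumor 2. It was -1.20 without GTML tumor 8, where the unadjusted exact permutation p was 0.0256.

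Tapbp, which encodes tapasin, was the steadiest member. It ranged from 30.8 to 54.9 CPM in GMYC and from 40.7 to 68.3 CPM in GTML tumors, and its highest tumors were GTML 8 and GTML 3. It was the only member with a higher estimate in GTML in the test of all tumors, at 0.26 ± 0.166 (log2 fold change, SE; edgeR adjusted p = 0.261). The spread of Tapbp within the models (SD 0.30 on the log2 scale) exceeded that of 25.2% of the genes tested.

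Nlrc5, the transactivator of class I genes, was the most variable member, with a within-model SD (1.89, log2) above that of 99.6% of the genes tested. It measured 155 CPM (1102 counts) in GMYC tumor 2 and 1.38 to 4.85 CPM (9 to 36 counts) in the other 5 GMYC tumors, 45.7 times their median. Among GTML tumors Nlrc5 reached 60.7 CPM (373 counts) in tumor 2 and 2.37 to 12.2 CPM in the other 7. Among known targets of NLRC5, GTML tumor 2 held 5.69 CPM of Tap1 (GTML median 5.31), 50.7 of B2m (17.5), 90.3 of H2-D1 (64.7) and 44.4 of H2-K1 (31.1). The log2 fold change of Nlrc5 was -1.15 ± 1.05 (SE; edgeR adjusted p = 0.435), 2.02 (adjusted p = 0.0722) without GMYC tumor 2 and -2.27 without GTML tumor 2, so that single tumors set its sign and size.

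The class II members were spread less widely than Nlrc5, with within-model SDs of 1.15 (H2-Aa), 1.21 (H2-Ab1) and 1.09 (Cd74) on the log2 scale. H2-Aa measured 14.4, 97.8, 7.96, 18.2, 14.97 and 9.19 CPM in GMYC tumors 1 to 6. In GTML tumors H2-Aa ranged from 4.53 (tumor 7) to 54.0 CPM (tumor 8), with a median of 16.5. H2-Ab1, its partner in the I-A heterodimer, ran from 5.37 to 80.5 CPM in GMYC and from 3.21 to 42.6 CPM in GTML tumors. The count ratio of H2-Ab1 to H2-Aa stayed between 0.585 and 0.979 in all 14 tumors, a far narrower range than that of either gene's level.

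Cd74 measured 16.1, 126, 11.2, 33.2, 22.9 and 7.92 CPM in GMYC tumors 1 to 6. In GTML tumors Cd74 ranged from 11.5 to 66.6 CPM with a median of 25.3. The log2 fold changes were -0.38 ± 0.589 for H2-Aa, -0.39 ± 0.612 for H2-Ab1 and -0.22 ± 0.55 for Cd74 (SE), with edgeR adjusted p of 0.658, 0.667 and 0.797. Without GMYC tumor 2 they were 0.69, 0.74 and 0.78, with adjusted p of 0.285, 0.271 and 0.188. For all 3 class II members the GTML median exceeded the GMYC median while the GMYC mean exceeded the GTML mean.

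**Figure D2:**
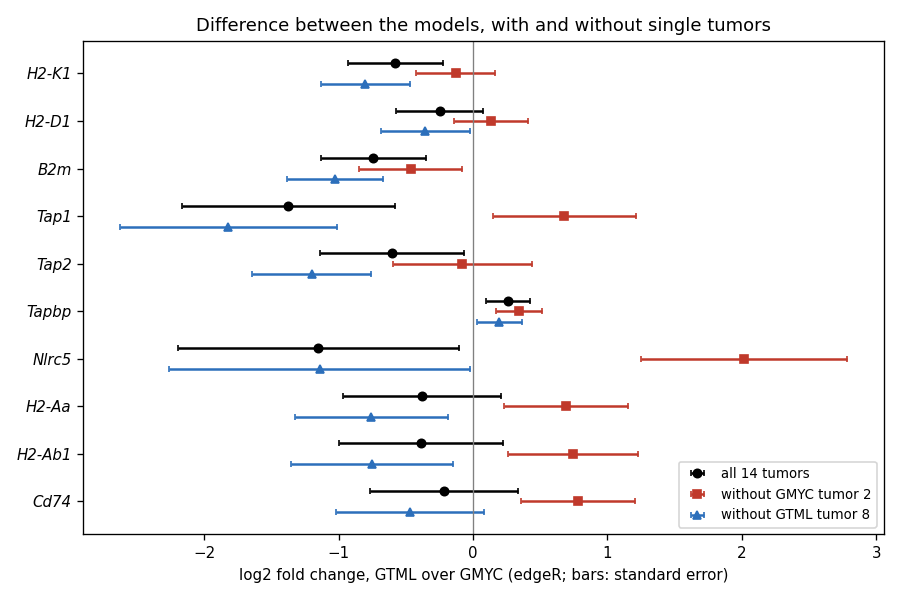
Log2 fold change of each member, GTML over GMYC, from edgeR, with an approximate standard error derived from the quasi-likelihood F. Black circles use all 14 tumors, red squares leave out GMYC tumor 2 and blue triangles leave out GTML tumor 8. Leaving out GMYC tumor 2 moves H2-D1, Tap1, Nlrc5, H2-Aa, H2-Ab1 and Cd74 from below to above 0, and no member passes the threshold in any of the 3 settings.

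GMYC tumor 2 was high across the pathway and not only for the members. Of 66 further pathway genes tested, 32 had their highest level of all 14 tumors in GMYC tumor 2 and 7 in GTML tumor 8, against 5.27% and 4.99% of all genes tested. The genes named in the next sentences were picked after their values were seen. Ifng, the cytokine itself, had 17 counts in GMYC tumor 2 and at most 1 in any other tumor, and Cxcl9, a chemokine it induces, had 454 counts and at most 29 elsewhere. Irf1, a transcription factor induced by interferon gamma, measured 88.8 CPM in GMYC tumor 2 and at most 41.2 elsewhere. Gbp7, an interferon-inducible GTPase, measured 175 CPM against at most 24.9. The immunoproteasome subunit Psmb8 measured 38.3 CPM against at most 9.02, and Cd274, which encodes PD-L1, 25.6 against at most 11.6. The interferon receptor genes did not follow, with Ifngr1 at 44.9 CPM in GMYC tumor 2 and 27.9 to 51.5 CPM in the others.

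Markers of immune cells were read beside these values. The 15 microglia and macrophage markers summed to 500 CPM in GMYC tumor 2, within the 326 to 513 CPM of the other GMYC tumors. They summed to 662 CPM in GTML tumor 8, above the 436 CPM that was the most in any other GTML tumor. The 9 T cell markers summed to 55.4 CPM in GMYC tumor 2 (24.6 to 40.1 in the other GMYC tumors) and to 86.2 CPM in GTML tumor 8 (at most 45.7 in the others), but 5 of them, Cd3d, Cd3e, Cd3g, Cd8b1 and Cd2, had at most 9 counts in any tumor. Cd4 alone gave 35.5 CPM of the sum in GMYC tumor 2 and 52.3 CPM in GTML tumor 8. It measured 14.97 to 34.0 CPM in the other GMYC tumors and at least 28.5 CPM in every GTML tumor. The 6 NK cell markers summed to 7.18 CPM in GMYC tumor 2 (at most 1.75 in the other GMYC tumors) and to 5.502 CPM in GTML tumor 8 (at most 1.46 in the others), and 3 of them (Ncr1, Klrb1c, Klrd1) had at most 9 counts. The dendritic cell list summed to 49.98 to 138 CPM, highest in GTML tumor 8, with Cd209a at no more than 9 counts. The part of these cells in the levels of the members was not tested.

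**Figure D3:**
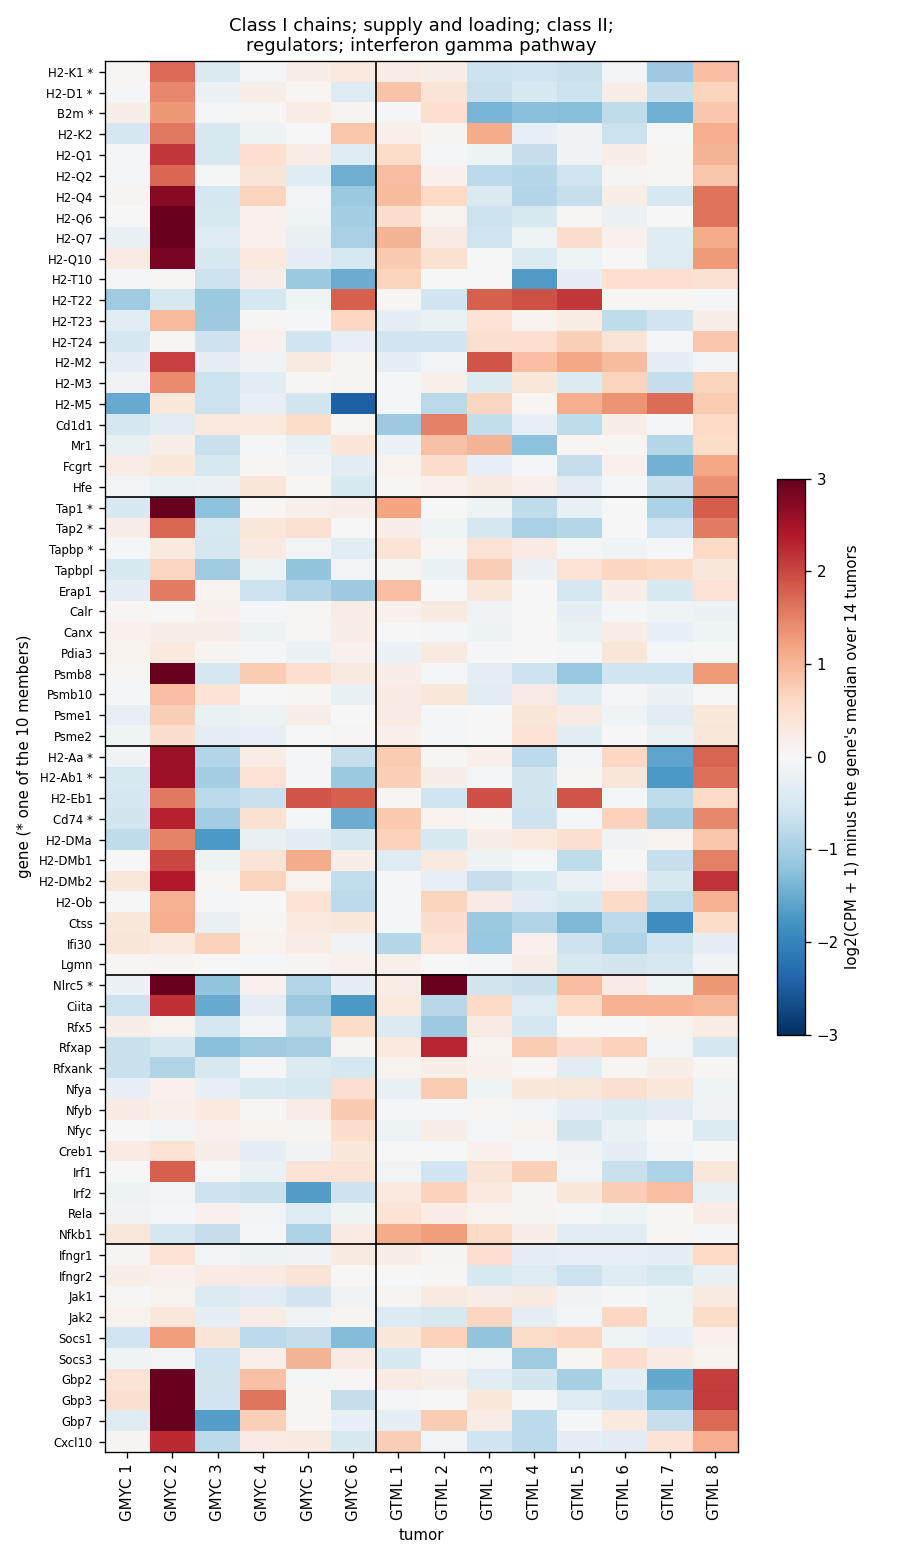
Tested pathway genes (rows, members starred) in each tumor (columns), as log2(CPM + 1) minus the gene's median over the 14 tumors, with the color scale limited to 3 either way. Rows run through 5 lists in the order of the title, and the vertical line separates GMYC from GTML. The column of GMYC tumor 2 is red for most class I, class II and interferon genes, GTML tumor 8 is so to a lesser degree, and Calr, Canx, Pdia3 and Lgmn are near 0 in every column.

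Between the models, 6 of the 66 further pathway genes were called, against 21.2% of all genes, 4 higher and 2 lower in GTML, and all 6 were also called without GMYC tumor 2. Of 18 further class I chains tested of 24 listed, H2-M5 was higher in GTML at a log2 fold change of 1.49 (adjusted p = 0.0367). H2-Q6, the class I gene with the next largest change, had -1.12 (adjusted p = 0.305), and 0.86 without GMYC tumor 2. Of 9 further genes of peptide supply and loading tested of 10 listed, 0 were called, and Psmb8 (-1.68, adjusted p = 0.0757, and -0.39 without GMYC tumor 2) and Tapbpl (0.66, adjusted p = 0.145) had the largest changes. Of 8 further class II genes tested of 10 listed, 0 were called, and the largest changes were those of H2-DMb1 (-0.84, and -0.29 without GMYC tumor 2) and the cathepsin Ctss (-0.77).

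Of 13 further regulators tested, 3 were called higher and 1 lower in GTML, beside 21.2% of all genes called in either direction. Rfxap and Rfxank, subunits of the RFX complex that binds MHC promoters, rose in GTML by 1.58 ± 0.438 and 0.56 ± 0.164 on the log2 scale (SE; adjusted p = 0.0209 and 0.0259). Rfxap was 3.21 to 9.62 CPM in GMYC tumors and 6.11 to 48.0 CPM in GTML tumors, where tumor 2 was highest. Irf2, a factor of the interferon regulatory family, rose by 1.07 ± 0.28 (SE; adjusted p = 0.0167). Nfyb, a subunit of the factor that binds the Y box, was lower in GTML at -0.46 ± 0.125 (SE; adjusted p = 0.019). Ciita, the class II transactivator, named after its values were seen, had a log2 fold change of 0.32 (adjusted p = 0.732), which was 1.74 (adjusted p = 0.0137) without GMYC tumor 2. Ciita measured 41.9 CPM in that tumor, 1.84 to 6.604 CPM in the other GMYC tumors and 4.23 to 18.5 CPM in GTML tumors.

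In the interferon gamma pathway, 0 genes were called higher and 1 of 12 lower in GTML, beside 21.2% of all genes called in either direction. The gene called was the receptor subunit Ifngr2, at -0.50 ± 0.133 (SE, edgeR adjusted p = 0.0169). Gbp7 (-1.88, adjusted p = 0.116) and Gbp3 (-1.37, adjusted p = 0.174) had the largest changes, and without GMYC tumor 2 these were 0.56 and -0.06. Among the immune checkpoint and costimulation ligands, 0 of 8 tested were called, beside the same 21.2%, with Cd86 at -0.49 and Cd276 at -0.36. Leaving out GMYC tumor 2 raised the calls among the 66 further pathway genes from 6 to 10, where 20.5% of all genes were called. Of the 10, 8 were higher in GTML, and the added genes were Ciita, Tapbpl, H2-DMa and Jak1, named for having been added.

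Some pathway genes did not follow the members. H2-Eb1, the class II I-E beta chain, had 30 to 42 counts in GMYC tumors 2, 5 and 6 and GTML tumors 3 and 5, and at most 13 in the other 9. H2-T22, a nonclassical class I gene, had 98 to 117 counts in GMYC tumor 6 and GTML tumors 3, 4 and 5 and at most 26 elsewhere. Both were singled out after their values were seen, and neither pattern separated the models.

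The level of the microglia and macrophage list (mean log2 CPM of its 15 markers) was set against each member within each model, 20 relations in all. In GTML tumors 8 of 10 members had a Benjamini-Hochberg adjusted exact permutation p under 0.05 over the 20 relations, and in GMYC tumors 0 of 10. With 6 core markers alone (Aif1, C1qa, C1qb, C1qc, Csf1r, Tyrobp) only H2-K1 and B2m in GTML passed, and the other 6 each had an adjusted exact permutation p of 0.0667. With all 15 markers but without GMYC tumor 2, a setting added later, 1 relation in GMYC and 8 in GTML passed. The difference between the models in these relations was not tested. For H2-K1 in GTML, Pearson's r was 0.951 (exact permutation p = 0.00057, adjusted 0.00744) and Spearman's rho 0.857 (exact permutation p = 0.0107), and r was 0.904 without GTML tumors 8 and 2, the farthest from the median. For B2m in GTML, r was 0.912 (exact permutation p = 0.000744, adjusted 0.00744), rho 0.881 (exact permutation p = 0.00724), and r was 0.714 without those tumors.

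For Cd74 in GTML, r was 0.841 (exact permutation p = 0.00883, adjusted 0.0301), rho 0.905 (exact permutation p = 0.00456), and r without those tumors was 0.928. H2-Aa and H2-Ab1 had r of 0.849 and 0.869, H2-D1 0.769, Tap1 0.812 and Tap2 0.860. Tapbp (r = 0.430, exact permutation p = 0.3, adjusted 0.328) and Nlrc5 (r = 0.613, exact permutation p = 0.113, adjusted 0.215) did not pass. In GMYC tumors r ran from 0.396 for Nlrc5 to 0.745 for Tapbp, and the latter became -0.398 without GMYC tumors 3 and 6. Among the 6 GTML tumors with few small nucleolar RNA counts, 8 members each had an unadjusted exact permutation p under 0.05 for Pearson's r. These were the members that passed with all GTML tumors, with r from 0.913 for Tap2 to 0.998 for H2-K1. For Spearman's rho, the exact permutation p was 0.0583 for H2-K1 and Tap2 and 0.103 for H2-D1 and B2m. It was 0.00278 for Tap1, H2-Aa and Cd74 and 0.0167 for H2-Ab1. Without GTML tumors 8 and 7, r for these members ran from 0.595 for Tap1 to 0.989 for H2-K1. Only GTML tumors 3 to 6 were left there. Tumors 3, 4 and 5 had nearly the same marker level and tumor 6 a higher one, so tumor 6 largely set these r. They therefore cannot show whether the relation holds without its extreme tumors. The other GTML and the GMYC subsets of that split held too few tumors for a relation. With the 6 core markers and all GTML tumors, those farthest from the median were tumors 8 and 7. Without these tumors, r with the core markers was 0.199 for Cd74, 0.147 for H2-Aa, 0.252 for H2-Ab1 and 0.222 for Tap1. It was 0.881 for B2m, 0.797 for H2-K1, 0.698 for H2-D1 and 0.56 for Tap2.

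**Figure D4:**
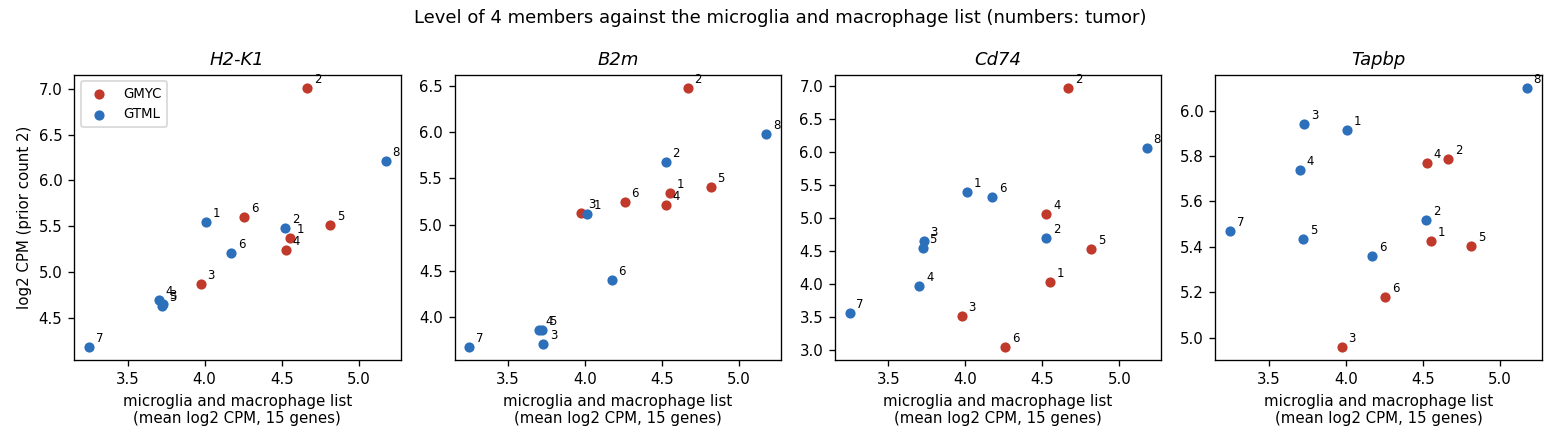
Log2 CPM (prior count 2) of H2-K1, B2m, Cd74 and Tapbp against the mean log2 CPM of the microglia and macrophage markers, 1 point per tumor, numbered, red for GMYC and blue for GTML. GTML tumors line up for the first 3 genes from tumor 7 to tumor 8, with r of 0.951, 0.912 and 0.841, Tapbp is more scattered, and GMYC tumor 2 lies above the other tumors with a like marker level.

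The genes most like the class I members were sought among 14517 tested genes past a minimum mean level. Pearson's r was taken over the 14 tumors after centring each gene on its model's mean. The 14517 include members, which were left out when the genes most alike were picked. The tumors share that centring and GMYC tumor 2, so r is given as a description with and without this tumor. The genes most like the mean of H2-K1, H2-D1, B2m, Tap1, Tap2 and Tapbp were Gbp2 (r = 0.953, and 0.917 without GMYC tumor 2), Fgl2 (0.944 and 0.937), Psmb8 (0.942 and 0.901), H2-Q4 (0.924 and 0.863), Trim30a (0.902 and 0.914) and Gm43302 (0.894 and 0.816). The genes most like the mean of H2-Aa, H2-Ab1 and Cd74 were Irgm1 (r = 0.940, and 0.887 without GMYC tumor 2), Gbp2 (0.928 and 0.862), Irgm2 (0.922 and 0.891), Parp14 (0.921 and 0.842), Parp9 (0.919 and 0.854) and H2-Q4 (0.913 and 0.835). Gbp2 and H2-Q4 stood in both lists. Gbp2 measured 98.6 CPM in GMYC tumor 2 and 2.08 to 36.2 CPM in the other 13 tumors, and Irgm2 measured 85.1 against 0.612 to 11.3 CPM.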

How the data were processed

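The tumor data comprised 6 GMYC and 8 GTML biopsies. The study's own comparison of the models leaves out 1 GTML tumor that the labels do not mark, whereas all 8 are used here, with each left out in turn. The authors aligned reads to mm9 with STAR and then Bowtie2, counted them with featureCounts (Subread 1.5.2) and GENCODE genes, and deposited whole-number counts without normalization. The submitters' processing notes list STAR 2.4.0 and Bowtie2 2.2, and the paper another STAR version. Handling of duplicates and strand is not given in the sources used here. Another 18 columns of per-sample values match no label and were not used, so the comparison in cultured cells was not run.

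Symbols and exon lengths came from a GRCm38 annotation by Ensembl identifier (32620 of 37310 genes, 87.4%). Differences between models were tested by the quasi-likelihood method of edgeR 4.0.16 under R 4.3.3, after TMM scaling and a filter of CPM over 1 in 3 tumors, with calls at an adjusted p under 0.05. The standard errors (SE) given for edgeR fold changes are approximate. Each is the absolute log2 fold change divided by the square root of the quasi-likelihood F. Log2 CPM used a prior count of 2, and the code was tested on simulated counts. Alternatives were DESeq2 1.42.0, limma-voom (limma 3.58.1), other filters, scaling, thinning and covariates, and single tumors left out. The robust dispersion of edgeR and the relations without GMYC tumor 2 or within the small nucleolar RNA split were added after the data had been seen. Motifs were matched to RefSeq promoters and 50-base words to GENCODE transcripts. The members and lists were chosen with earlier results of these data known. Named genes are all members, pathway genes that were called or had the 2 largest changes of a list, and the 6 most alike; others are said to be chosen later. Some genes of the lists are counted but not reported here by name.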

Additional observations from a re-analysis of the deposited data

Results flagged for a closer look

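The highest tumor stood apart from the rest of its model, by Dixon's criterion on CPM, in 13 of 22 groups looked at. The criterion's rate of about 1 in 20 (1.1 of 22) is for normally distributed, independent values. Whether CPM met this was not tested, so the flags are a description and chance is not weighed by them. In GMYC tumors this was tumor 2 each time. It held 128.8 CPM of H2-K1 (next highest 48.1), 188.6 of H2-D1 (78.9), 88.8 of B2m (42.0), 98.6 of Tap1 (6.65) and 11.4 of Tap2 (4.19). It also held 155.1 CPM of Nlrc5 (next highest 4.85), 97.8 of H2-Aa (18.2), 80.5 of H2-Ab1 (17.7) and 125.5 of Cd74 (33.2). These 9 genes share the tumor and are not independent. In GTML tumors, tumor 8 stood apart for Tap2 (9.93 CPM, next 3.35), H2-Aa (53.95 CPM, next 27.0) and H2-Ab1 (42.6 CPM, next 21.7), and tumor 2 for Nlrc5 (60.7 CPM, next 12.2).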

How the results depend on the processing

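No member was called by edgeR under any alternative, by DESeq2 (8 members, with no p for Tap1 and Nlrc5) or by limma-voom. Of 260 member values under alternatives, 236 kept their direction, including all of H2-K1 (nearest 0 at -0.13), B2m, Tap2 (nearest 0 at -0.08) and Tapbp, and the cause of the 24 reversals was not tested. With each tumor left out in turn, log2 fold changes (GTML over GMYC) ran from -0.40 to 0.14 for H2-D1, -1.82 to 0.68 for Tap1, -2.27 to 2.02 for Nlrc5, -0.76 to 0.69 for H2-Aa, -0.75 to 0.74 for H2-Ab1 and -0.47 to 0.78 for Cd74, positive only without GMYC tumor 2. Limma-voom turned Nlrc5 to 0.32, H2-Ab1 to 0.051 and Cd74 to 0.27. The low side of the small nucleolar RNA split turned Tap1 to 0.14, Nlrc5 to 1.15, H2-Aa to 0.76, H2-Ab1 to 0.87 and Cd74 to 0.97, and the high side turned H2-D1 to 0.135. A term for that split turned H2-D1 to 0.043, Nlrc5 to 0.38, H2-Aa to 0.064, H2-Ab1 to 0.14 and Cd74 to 0.28. Called pathway genes numbered 6, and 0 on the high side of the split, 2 with a term for Y-linked transcripts, 0 at the study's thresholds (adjusted p under 0.01, absolute log2 fold change above 1) and 3 (no GMYC tumor 3) to 10 (no GMYC tumor 2) with 1 tumor left out. Called genes in all numbered 4459, and 2 on the high and 2662 on the low side, 2851 and 2051 with the split and Y-linked terms, 676 at the study's thresholds and 2617 (no GMYC tumor 3) to 6430 (no GTML tumor 2) with 1 tumor left out, with 2916 lacking GMYC tumor 5. By the exact permutation test, unadjusted p was under 0.05 for 0 members with any GMYC tumor left out, 1 without GTML tumor 1 or 2 and 2 without GTML tumor 8, and 8 relations with the microglia list became 2 (H2-K1 and B2m in GTML) with the 6 core markers alone. The replicate numbers did not pair the tumors: same-numbered tumors had correlated deviations of -0.212 to 0.24, and 1 of 6 pairs correlated best with its own number. With the replicate block 0 members, 0 pathway genes and 251 genes were called, and Nlrc5 was 0.27, H2-Aa 0.002, H2-Ab1 0.14 and Cd74 0.27. Depth limits the values of Tap2 (5 to 81 counts) and the T and NK cell markers.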
